A study of Mus musculus with 24 samples.

Results

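Ccr1, Ccr2, Cx3cr1, Cxcr4 and Ccrl2 are receptors through which myeloid cells read chemokine gradients, and they were picked from the expression table by gene symbol. They are 5 of the 54532 genes in it, and all 5 were found. RNA was sequenced from cultures grown out of mouse bone marrow, as 24 polyA libraries in 8 groups of 3. Macrophages (BMDMs) were raised in L929-conditioned medium, and dendritic cells (BMDCs) in GM-CSF and IL-4. All donor mice carried floxed Tmem173 (Tmem173 fl/fl, the gene of STING, an innate sensor that responds to cytosolic DNA through cyclic dinucleotides) and had received tamoxifen. The WT label marks mice with the floxed gene alone. The CRE label marks mice that also carried Lyz2-Cre ert2, a tamoxifen-inducible Cre under the Lyz2 promoter, which is active in macrophages, neutrophils and their precursors. Each label and cell type was cultured without agonist (control, CT) or with DMXAA (Vadimezan, DX), an agonist of mouse STING. The series text gives the DMXAA concentration as 40 µM and the study's methods give it by weight per volume, so it is uncertain, and the treatment time of these cultures is not given in the sources used here. The methods give ages of tamoxifen-treated mice, but do not tie them to the marrow donors. The labels do not say whether libraries of one group came from separate mice, so the p-values measure the spread between these libraries, which may be technical.

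Chemokine receptors are seven-pass membrane proteins that couple to inhibitory G proteins and steer cells along chemokine gradients. CCR2 takes monocytes out of the marrow and into inflamed tissue, CCR1 serves several inflammatory CC chemokines, CX3CR1 is the receptor of the membrane-bound chemokine fractalkine and marks resident macrophages and patrolling monocytes, and CXCR4 holds cells in the marrow by way of CXCL12. CCRL2 is an atypical member of the family: it binds chemerin and presents it to other cells without coupling to G proteins itself.

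Libraries differed in ways that the labels do not give, and these bear on the values below. Total counts ranged from 15657347 to 18912887 per library. Counts scaled to library size (CPM) of 8 macrophage markers summed to 9585.5 to 21351.5 in the BMDM libraries numbered 1 and 2, 42.2 to 70.6 in the 4 BMDM libraries numbered 3 and 2042.9 to 8947.2 in BMDCs. In those 4 libraries 8 leukocyte markers summed to 2.39 to 17.8 CPM, against at least 3955.6 in the other 20, while 8 fibroblast markers summed to 12657.1 to 19148.9 CPM, against at most 458. The libraries numbered 3 therefore lacked the markers of their labelled cell type. They are given apart, and BMDM results rest on numbers 1 and 2 with the values over all libraries beside them. The 8 dendritic cell markers summed to 4949.2 to 9789 CPM in BMDCs and 174 to 640 in BMDMs 1 and 2. Both BMDM WT libraries numbered 2 had 458 and 422 CPM of fibroblast markers, against 28.8 to 63.1 in the other 6 BMDM libraries of numbers 1 and 2. Both BMDC CRE libraries numbered 2 had 2042.9 and 2164 CPM of macrophage markers, against 5958.1 to 8947.2 in the other 10, and 183 and 395 CPM of neutrophil markers, against at most 34.2. The 2 CRE BMDM libraries of each treatment lay far closer together than any other same-group pair (chi-square per degree of freedom 3.23 and 4.95, against 14.2 or more). In BMDCs WT number 3 lay near CRE number 1 (3.33 in control and 4.18 under DMXAA) and WT number 2 near CRE number 3 (4.77 and 4.27), nearer than any pair of one label. Tmem173, the targeted gene, was at 9.91 to 14.7 FPKM in WT and 8.76 to 10.4 in CRE control BMDMs of numbers 1 and 2, and under DMXAA at 22.8 to 31.8 in WT and 9.12 to 10.1 in CRE, without overlap. In BMDCs it was at 28.8 to 51.6 FPKM in WT and 19.7 to 36.8 in CRE controls and at 34.6 to 55.3 and 24.3 to 35.1 under DMXAA. Its transcript was thus present in every CRE group and overlapped between labels in 3 of 4 comparisons, and groups are named here by their label.

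All positions are in GRCm38. Cxcr4 (ENSMUSG00000045382) lies on chromosome 1, from 128588199 to 128592293 on the minus strand, with 2 exons. The other 4 lie on chromosome 9, which holds 15 of the 25 receptor genes of the family examined here: Ccrl2 (ENSMUSG00000043953) from 111054486 to 111057519 on the minus strand with 3 merged exons, Cx3cr1 (ENSMUSG00000052336) from 119901616 to 120069879 on the minus strand with 4, Ccr1 (ENSMUSG00000025804) from 123962124 to 123968692 on the minus strand with 2 and Ccr2 (ENSMUSG00000049103) from 124101950 to 124113557 on the plus strand with 3. Cx3cr1 shares its span with 9 other genes, but its exons overlap those of only 1, the antisense gene Gm33858, by 78 bases, and Gm33858 held at most 7 counts in a library. No other member overlaps a gene.

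The 250 bases before the RefSeq start sites (GRCm38.p6) were searched on both strands for 5 short motifs: GGANNTTCC (kappaB-like), GAAANNGAA (interferon-response-like), TTCNNNGAA (STAT-like), TGANTCA (AP-1-like) and GAGGAA (PU.1-like). They occur in 3.59%, 7.13%, 7.02%, 6.75% and 23.3% of 32851 such windows. Every member had a window in the RefSeq table. The windows of Ccrl2 and Cxcr4 are shown because these were the members that differed between labels under DMXAA in BMDMs. Both run 5′ to 3′ towards the start site on the minus strand, with motif matches in capitals. The first is chr9:111057519-111057768 and the second chr1:128592300-128592549.
Ccrl2: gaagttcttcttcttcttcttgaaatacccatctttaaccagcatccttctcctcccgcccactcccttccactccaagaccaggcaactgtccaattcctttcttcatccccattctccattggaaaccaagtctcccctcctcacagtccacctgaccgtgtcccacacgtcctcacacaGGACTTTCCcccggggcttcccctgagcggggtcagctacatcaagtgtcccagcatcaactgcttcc
Cxcr4: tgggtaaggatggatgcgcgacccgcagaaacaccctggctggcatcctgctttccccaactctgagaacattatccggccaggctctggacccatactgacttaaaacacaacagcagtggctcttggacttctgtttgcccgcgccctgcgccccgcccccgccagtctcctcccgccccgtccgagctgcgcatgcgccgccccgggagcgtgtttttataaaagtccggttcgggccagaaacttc
Ccrl2 held 1 kappaB-like match, GGACTTTCC, at -68 from the start site, and Cxcr4 held none of the 5. The windows of 2 further Ccrl2 start sites held none. Ccr1 held 1 PU.1-like match at -129, and Ccr2 held 1 interferon-response-like match at -86, TTCTCTTTC on the strand read, inside sequence that the annotation also gives as an exon of Ccr2. The Cx3cr1 window, which lies inside an annotated exon, held none. A match is a description of the letters and not a bound site.

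**Figure D1:**
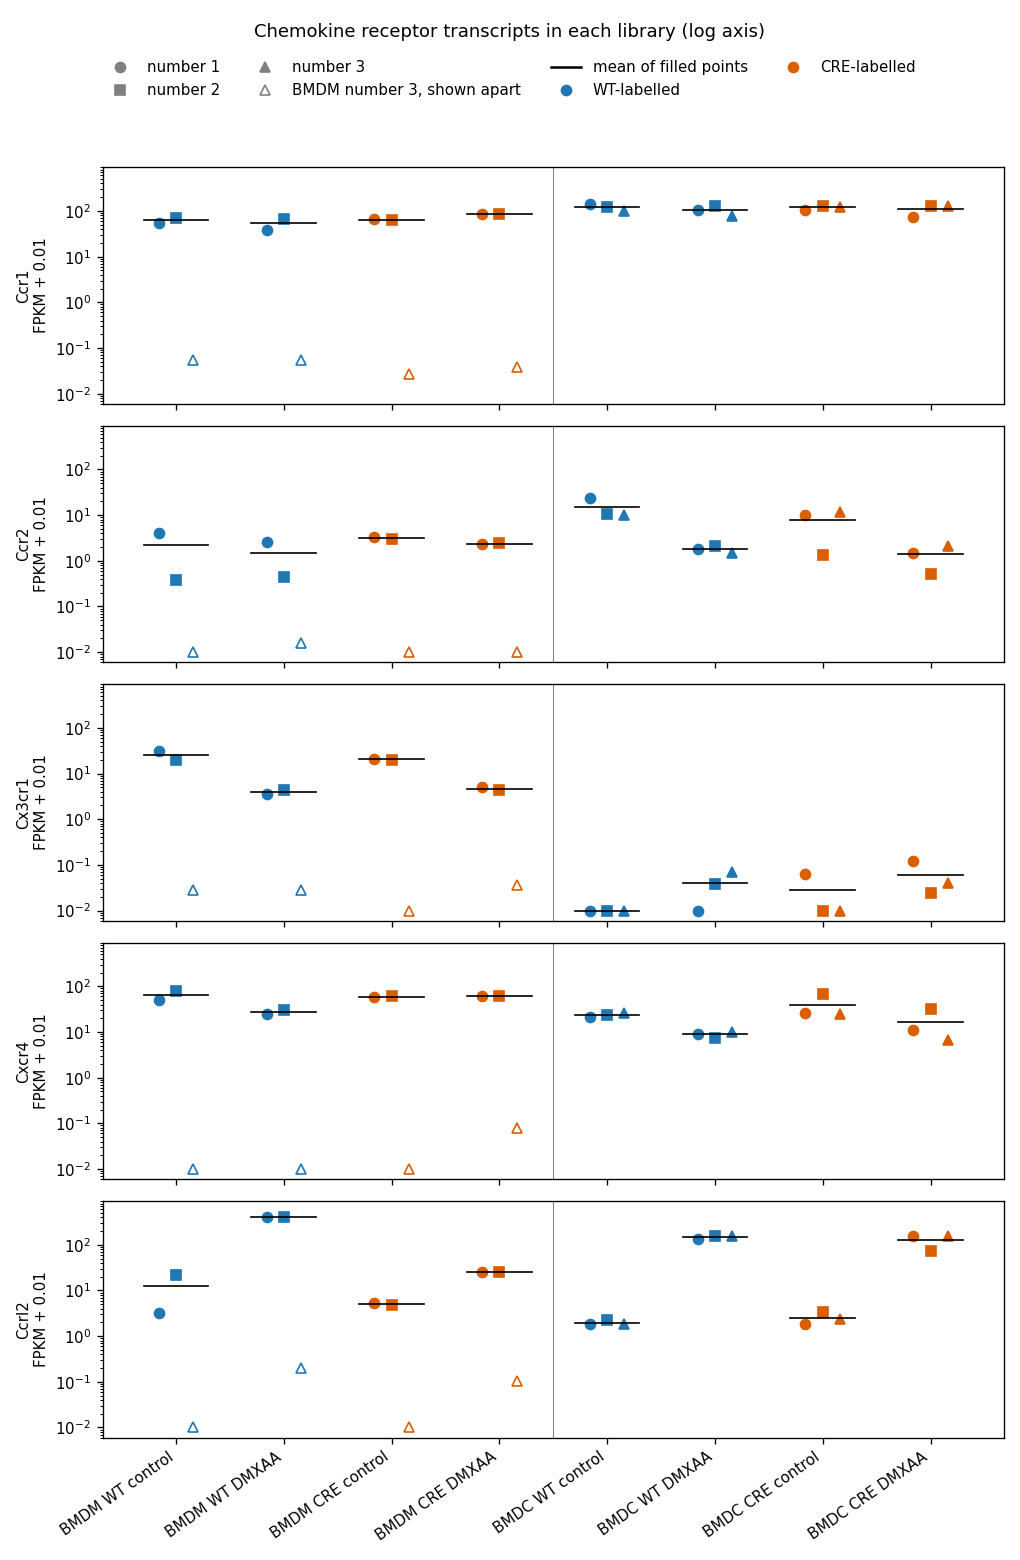
Level of each receptor in each library, as FPKM + 0.01 on a log axis (points; circles, squares and triangles are numbers 1, 2 and 3), with the mean of the filled points as a line. Ccrl2 was higher under DMXAA than in control in every filled pair, Cx3cr1 stayed at or below 0.111 FPKM in BMDCs, and the open triangles of BMDM number 3 lay at or below 0.19 FPKM in every panel.

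Levels are given as deposited FPKM, fragments per kilobase of transcript scaled by library size, which can be compared between genes. In control BMDMs of numbers 1 and 2 Cxcr4 was at 50.5 to 77.3 FPKM, Ccr1 at 53.8 to 70.9, Cx3cr1 at 19.6 to 30.4, Ccrl2 at 3.26 to 22.2 and Ccr2 at 0.372 to 4.0. Cx3cr1 came after Cxcr4 and Ccr1 in 3 of these 4 libraries, and in WT number 2 Ccrl2 lay above it. In control BMDCs Ccr1 led at 101 to 144 FPKM, ahead of Cxcr4 at 21.0 to 68.6. The BMDM libraries numbered 3 held almost no transcript of any of them: 1 to 3 counts of Ccr1, 0 or 1 of Ccr2, 0 to 3 of Cx3cr1, 0 to 3 of Cxcr4 and 0 to 12 of Ccrl2 per library. In RNA from whole cultures, fewer cells of a type and less transcript per cell cannot be told apart.

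Ccrl2, the chemerin-presenting receptor, rose under DMXAA in WT-labelled BMDMs and in BMDCs of both labels. In WT-labelled BMDMs its control FPKM was 3.26 and 22.2 and its DMXAA FPKM 398 and 396. In CRE-labelled BMDMs it was 5.36 and 4.91 in control and 25.2 and 24.9 under DMXAA. DMXAA and control did not overlap in either label, and the WT-labelled DMXAA libraries stood far above all others of the 8. The WT-labelled response was 4.84 ± 0.83 on the log2 scale (SE, n = 2 against 2), 28.6-fold (adjusted p 0.00488 in edgeR). Per number the FPKM ratio was 122 for number 1 and 17.8 for number 2, since the control library numbered 2 was the higher. With the libraries numbered 2 left out of the WT label the log2 value was 6.82. The CRE-labelled response was 2.26 ± 0.76 on the log2 scale (SE, n = 2 against 2; 4.8-fold) and did not pass the test (adjusted p 0.116), with per-number ratios of 4.69 and 5.07. It passed in a fit of the CRE-labelled libraries alone (adjusted p 2.64e-16), where the biological coefficient of variation was 5.19% against 24.5% in the fit of both labels. In a fit of the WT-labelled libraries alone, with a coefficient of 35.1%, the WT-labelled call ended at 4.9 (adjusted p 0.0659).

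Under DMXAA Ccrl2 was lower in CRE-labelled than in WT-labelled BMDMs, by -3.94 ± 0.80 on the log2 scale (SE, n = 2 against 2), 15.3-fold (adjusted p 0.0190 in edgeR). Leaving out WT number 1 (adjusted p 0.0511), CRE number 1 (0.144) or CRE number 2 (0.141) of the DMXAA libraries ended that call at values of -3.97 to -3.93, and so did a fit without the low-value limit (-3.90, adjusted p 0.102). In control the difference was -1.36 ± 0.74 (adjusted p 0.749) and it turned to 0.63 with the WT-labelled libraries numbered 2 left out, so its direction rested on them. The difference between the 2 responses, tested as an interaction, was -2.58 ± 1.04 (95% interval -5.06 to -0.10, adjusted p 0.230) and -4.56 without those libraries. A lone WT-labelled library per treatment is left there and is assumed to vary as the CRE-labelled pairs do. Leaving out only the WT-labelled control number 1 (-1.79) or number 2 (-4.59) made the interaction a call, with 1 library left in that group. The part of the fibroblast RNA of WT number 2 in its control Ccrl2 level was not tested. The libraries with the most fibroblast RNA, those numbered 3, held at most 0.190 FPKM of Ccrl2. They lacked leukocyte markers, so they cannot show its level in a culture that holds both.

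In BMDCs the control FPKM of Ccrl2 was 1.81, 2.29 and 1.8 in the WT label and 1.79, 3.38 and 2.31 in the CRE label. Under DMXAA it was 131, 156 and 155 in the WT label and 158, 71.7 and 154 in the CRE label, where number 2 was the low one. All 6 DMXAA libraries lay above all 6 controls. Ccrl2 rose by 6.20 ± 0.37 on the log2 scale in the WT label (SE, n = 3), 73.5-fold (adjusted p 7.78e-07) and by 5.66 ± 0.36 in the CRE label (SE, n = 3), 50.5-fold (adjusted p 1.25e-06). Between labels under DMXAA it differed by -0.19 ± 0.30 (95% interval -0.84 to 0.46; adjusted p 1), and the interaction was -0.54 ± 0.43 (-1.49 to 0.41; adjusted p 1). Without CRE number 2 the CRE-labelled response was 6.23 and the interaction 0.02.

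Cx3cr1, the fractalkine receptor, fell under DMXAA in BMDMs of both labels and was near 0 in BMDCs. Its control FPKM was 30.4 and 19.6 in WT-labelled and 21.1 and 19.9 in CRE-labelled BMDMs. With DMXAA it was 3.53 and 4.35 in the WT label and 4.96 and 4.39 in the CRE label. The 4 treated libraries all lay below the 4 controls. It fell by 2.77 ± 0.23 on the log2 scale in the WT label (SE, n = 2 against 2), 6.81-fold lower (adjusted p 0.000265 in edgeR) and by 2.15 ± 0.23 in the CRE label (4.45-fold lower; adjusted p 0.00209). Cx3cr1 was the only member called in CRE-labelled BMDMs by edgeR, DESeq2 and limma on the same 8 libraries. The responses differed by 0.61 ± 0.31 (interaction, 95% interval -0.13 to 1.35, adjusted p 0.336). Without WT number 2 they differed by 1.06, with 1 WT-labelled library left per treatment, so the spread came from the CRE-labelled pairs alone. Between labels Cx3cr1 did not pass in control (-0.32 ± 0.22, adjusted p 0.791) or under DMXAA (0.29 ± 0.22, adjusted p 0.409). Leaving out WT number 2 gave -0.59 and 0.46, with the same limit.

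In BMDCs the 3 WT-labelled control libraries held 0 counts of Cx3cr1 and the 3 WT-labelled DMXAA libraries 0, 2 and 4. CRE-labelled BMDCs held 5, 0 and 0 counts in control and 7, 1 and 2 under DMXAA. No BMDC library reached the low-value limit, so its DMXAA response was not tested there. Against WT-labelled control BMDMs (126 CPM on average) the WT-labelled control BMDCs were at least 730-fold lower, taking 3 counts per library as the limit that a count of 0 allows. This covers counting error only. Under DMXAA the cell types differed by -6.92 ± 0.67 on the log2 scale, a value that rests on the 0, 2 and 4 counts. Cx3cr1 passed the low-value limit of the joint fit through BMDMs alone, so the direction of its cell type differences was set beforehand.

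Cxcr4, the CXCL12 receptor, fell under DMXAA in WT-labelled BMDMs and did not pass the test in CRE-labelled BMDMs. The WT-labelled control FPKM was 50.5 and 77.3 and the DMXAA FPKM 24.6 and 30.1. In the CRE label the FPKM was 57.4 and 60.7 in control and 61.6 and 60.9 with DMXAA. Only the WT-labelled DMXAA libraries stood apart from the other BMDM libraries of numbers 1 and 2. Cxcr4 fell by 1.34 ± 0.23 on the log2 scale in the WT label (SE, n = 2 against 2), 2.53-fold lower (adjusted p 0.00434 in edgeR), a call that ended in a fit of the WT-labelled libraries alone (-1.27, adjusted p 0.0506), and its CRE-labelled difference was 0.03 ± 0.22 (95% interval -0.50 to 0.56; adjusted p 0.948). Under DMXAA it was higher in the CRE label by 1.21 ± 0.23 (2.31-fold; adjusted p 0.0142), a call that ended without WT number 1 (1.06, adjusted p 0.0635), CRE number 1 (1.18, 0.101) or CRE number 2 (1.22, 0.0930) of the DMXAA libraries. In control the labels differed by -0.16 ± 0.22 (adjusted p 0.923). The interaction was 1.37 ± 0.32 (95% interval 0.62 to 2.12) and just missed the threshold (adjusted p 0.0708). DESeq2 called it at 1.30 (adjusted p 0.00378). Without both WT libraries numbered 2 it was 1.18, with 1 WT-labelled library left per treatment. Leaving out only the WT-labelled control number 1 (1.63) or number 2 (0.99) also made it a call in edgeR, with 1 library left in that group.

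In BMDCs Cxcr4 was lower under DMXAA in each number of both labels. WT-labelled libraries had 21.0, 23.9 and 25.9 FPKM in control and 9.15, 7.51 and 9.79 under DMXAA, with no overlap. CRE-labelled libraries had 25.6, 68.6 and 24.9 in control and 11.1, 32.2 and 6.78 under DMXAA, where number 2 was the highest in both treatments and its treated level exceeded the other controls. The log2 differences were -1.45 ± 0.53 (SE, n = 3; adjusted p 0.0567) and -1.28 ± 0.52 (SE, n = 3; adjusted p 0.0974), neither called. Numbers were taken to pair control with DMXAA within a label in BMDCs, on these data alone, since no label says so. If they do, with number as a block within the label, the values were -1.45 (adjusted p 8.39e-05) and -1.40 (adjusted p 0.000121), both called. Leaving out both CRE-labelled libraries numbered 2 gave -1.52 in that label (adjusted p 0.000845), and leaving out only the treated one gave -2.16 (adjusted p 0.00402). DESeq2 called both without a block (-1.43, adjusted p 0.0183, and -1.27, adjusted p 0.0449). The labels differed by 0.76 ± 0.51 in control and 0.93 ± 0.52 under DMXAA (adjusted p 1 for both), and by 0.11 and 0.02 without CRE number 2. The same 2 libraries held the excess of neutrophil markers and the low macrophage markers, whose part in the Cxcr4 level was not tested.

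Ccr2, the receptor of the monocyte chemokine CCL2, fell under DMXAA in BMDCs. The WT-labelled control FPKM was 24.1, 10.5 and 10.3, and the DMXAA FPKM 1.82, 2.07 and 1.5. The CRE-labelled FPKM was 9.80, 1.35 and 11.7 in control and 1.48, 0.504 and 2.13 under DMXAA. The WT-labelled groups did not overlap, and the CRE-labelled groups overlapped through the low control of number 2. Ccr2 fell by 3.08 ± 0.72 on the log2 scale in the WT label (SE, n = 3), 8.43-fold lower (adjusted p 0.00717) and by 2.50 ± 0.71 in the CRE label (SE, n = 3), 5.64-fold lower (adjusted p 0.0239). The WT-labelled call held without any 1 library. The CRE-labelled call ended without control number 1 (-2.27, adjusted p 0.0708) or 3 (-2.05, 0.0851) and without DMXAA number 1 (-2.56, 0.0671) or 2 (-2.09, 0.0575), and it held at -2.59 (adjusted p 0.00095) without both libraries numbered 2. Between labels the difference was -0.95 ± 0.67 in control (95% interval -2.42 to 0.51) and -0.37 ± 0.69 under DMXAA (-1.89 to 1.15), with adjusted p 1 for both. In BMDMs Ccr2 was low, at 4.0 and 0.372 FPKM in WT-labelled control, 2.56 and 0.430 in WT-labelled DMXAA, 3.23 and 3.01 in CRE-labelled control and 2.34 and 2.40 in CRE-labelled DMXAA. The WT-labelled numbers differed from each other by more than the treatments did. Neither response passed in the fit of both labels (-0.66 ± 1.08, adjusted p 0.676, and -0.42 ± 1.06, adjusted p 0.840). With WT number 2 left out the WT-labelled value was -0.75, with 1 WT-labelled library left per treatment. In a fit of the CRE-labelled libraries alone the CRE-labelled response passed (-0.42, adjusted p 0.00227, biological coefficient of variation 5.19%).

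Ccr1, a receptor of CCL3, CCL5 and CCL6-type chemokines, passed the test in no DMXAA or label comparison of the main edgeR fits. Those fits hold 8 BMDM or 12 BMDC libraries without a replicate block. WT-labelled BMDMs had 53.8 and 70.9 FPKM in control and 38.4 and 68.2 under DMXAA. CRE-labelled BMDMs had 65.7 and 63.9 in control and 86.4 and 84.4 under DMXAA. Both numbers were thus lower with DMXAA in the WT label and higher in the CRE label, while the groups of the WT label overlapped in FPKM. In CPM the WT-labelled BMDM groups did not overlap, at 171 and 224 in control and 74.6 and 149 under DMXAA. The CRE-labelled CPM was 196 and 191 in control and 218 and 211 under DMXAA. The log2 differences were -0.33 ± 0.28 (adjusted p 0.394) and 0.38 ± 0.28 (adjusted p 0.431), and the interaction 0.71 ± 0.39 (95% interval -0.23 to 1.65; adjusted p 0.381). Without WT number 2 these became -0.59 for the WT label and 0.97 for the interaction, with 1 WT-labelled library left per treatment. In a fit of the CRE-labelled libraries alone the CRE-labelled response passed (0.38, adjusted p 2.02e-06, biological coefficient of variation 5.19%). Under DMXAA the CRE-labelled level lay above the WT-labelled one by 0.72 ± 0.28 (adjusted p 0.123). The difference passed without the low-value limit (0.76, adjusted p 0.0179). Leaving out only the WT-labelled DMXAA number 2 made calls of this difference (1.22), of the WT-labelled response (-0.83) and of the interaction (1.2), with 1 library left in that group. In BMDCs Ccr1 was 144, 120 and 101 FPKM in WT-labelled control, 104, 128 and 76.2 in WT-labelled DMXAA, 107, 128 and 124 in CRE-labelled control and 75.2, 129 and 128 in CRE-labelled DMXAA. All 4 groups overlapped in FPKM. In CPM the DMXAA libraries lay below the controls of their label. They were at 193 to 313 against 332 to 423 in the WT label and 190 to 315 against 351 to 395 in the CRE label. The edgeR responses were -0.27 ± 0.24 (95% interval -0.80 to 0.26) and -0.14 ± 0.24 (-0.66 to 0.39), neither called.

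**Figure D2:**
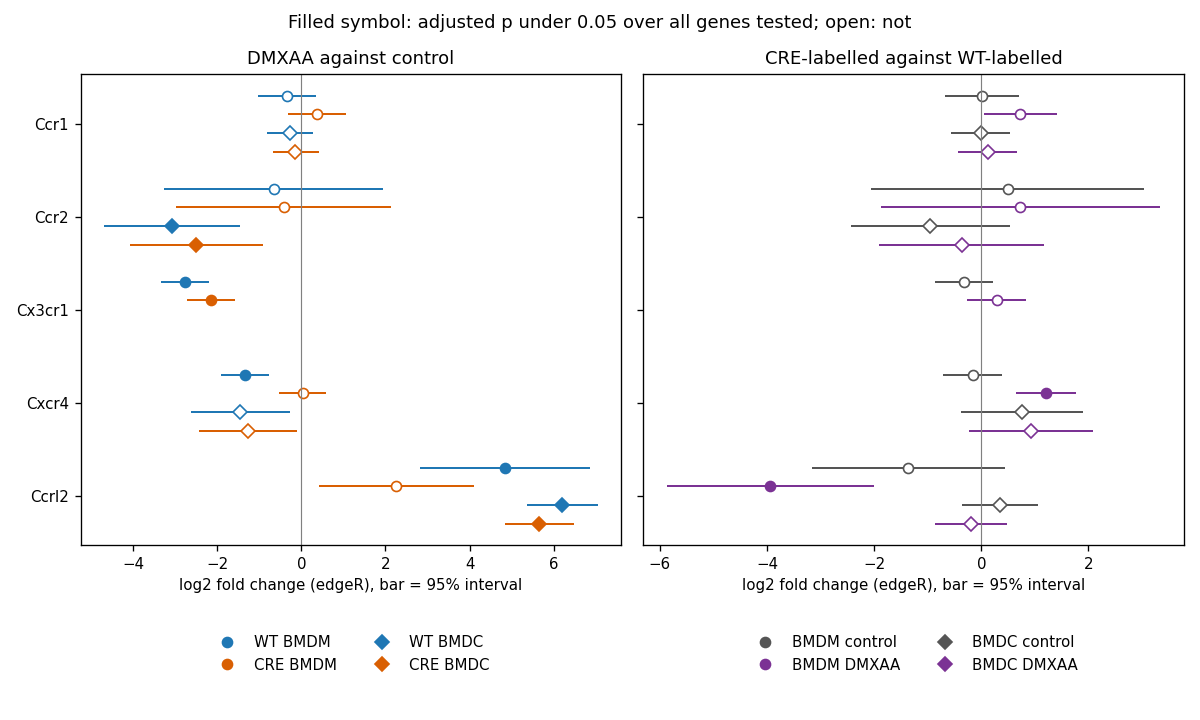
Log2 fold change of each receptor with its 95% interval from edgeR, for DMXAA against control (left) and for CRE-labelled against WT-labelled libraries (right). Filled symbols passed an adjusted p of 0.05 over all genes tested, and Cx3cr1 was not tested in BMDCs. Ccrl2 lies to the right and Cx3cr1 to the left of 0 in every response shown, and Cxcr4 in CRE-labelled BMDMs sits at 0.03.

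Counted over the 5 receptors, DMXAA called 3 of 5 in WT-labelled BMDMs, where 39.2% of 11569 genes were called, and 1 of 5 in CRE-labelled BMDMs, where 9.88% were. In BMDCs 2 of the 4 tested were called in each label, against 32.1% of 12126 genes in the WT label and 25.4% in the CRE label. With so few members these shares do not set the receptors apart from other genes. Between labels edgeR called 0 of 5 in control BMDMs (0 at an unadjusted p under 0.05, and 0 by DESeq2 and by limma), where 5 genes in all, 0.0432%, were called. Under DMXAA 2 of 5 were called, against 19.2% of all genes. The interaction called 0 of 5 (2 at an unadjusted p under 0.05, 1 by DESeq2 and 0 by limma), against 3.65%. In BMDCs the control comparison, the DMXAA comparison and the interaction each called 0 of 4 receptors, with 0 at an unadjusted p under 0.05 and 0 by DESeq2 and limma. Over all genes edgeR called 0% in each, with 99, 107 and 60 genes at an unadjusted p under 0.05. With all 12 BMDM libraries, the ones numbered 3 included, edgeR called 0 of the 5 in either BMDM response and 0 between labels, at log2 values near those above (4.92 for Ccrl2, -2.69 for Cx3cr1 and -1.26 for Cxcr4 in the WT label). DMXAA responses and label comparisons share libraries and are not independent of each other.

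Between cell types, within the WT label, Ccr1 in control was higher in BMDCs by 0.91 ± 0.29 on the log2 scale (1.88-fold; adjusted p 0.0270 in edgeR), and Ccrl2 (-2.75 ± 0.52, adjusted p 0.000986), Cxcr4 (-1.50 ± 0.49, adjusted p 0.0311) and Cx3cr1 were lower. Ccr2 was 10.3 to 24.1 FPKM in BMDCs and 0.372 to 4.0 in BMDMs without overlap, and its difference of 2.71 ± 0.99 missed the threshold at adjusted p 0.0525, while DESeq2 (adjusted p 0.0154) and limma on log2(FPKM + 1) (adjusted p 0.0104) called it, as did edgeR without BMDM number 1 (5.29, adjusted p 0.0128). In all 4 of 5 were called, against 28.5% of 13368 genes. The 4 include Cx3cr1, which passed the low-value limit through BMDMs alone. Without BMDM number 2 the difference in Ccrl2 was -0.72 (adjusted p 0.223) and that in Cxcr4 -1.09 (adjusted p 0.241), so both calls rested on that library. The Cxcr4 call also ended without any 1 of the other control libraries (adjusted p 0.0532 to 0.0877). That in Ccr1 ended without BMDM number 1 (0.74, adjusted p 0.195) or BMDC number 1 (0.78, 0.0838).

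Under DMXAA 4 of 5 were called between the cell types, against 30.6% of all genes: Ccr1 was higher in BMDCs by 1.0 ± 0.29 (adjusted p 0.0160) and Ccrl2 (-1.38 ± 0.49, adjusted p 0.0454), Cxcr4 (-1.58 ± 0.50, adjusted p 0.0243) and Cx3cr1 were lower. The Ccrl2 call ended without any 1 of the 5 libraries (adjusted p 0.0826 to 0.136). The Cxcr4 call ended without BMDM number 1 or 2 or BMDC number 1 or 2 (0.0562 to 0.111) and the Ccr1 call without BMDM number 1 (0.62, adjusted p 0.206) or BMDC number 2 (0.77, 0.0724). Ccr2 differed by 0.33 ± 0.94. Cx3cr1 again passed the low-value limit through BMDMs alone. Whether DMXAA acted differently in the 2 cell types was tested as an interaction, which called 0 of 5 (1 at an unadjusted p under 0.05, 1 by DESeq2 and 1 by limma) against 2.62% of all genes. The 1 was Cx3cr1, whose fitted interaction depends on the near-0 BMDC counts. For Ccrl2 it was 1.37 ± 0.73 (adjusted p 0.458) and -0.67 without BMDM number 2, and it was called without the BMDM control number 1 (2.15, adjusted p 0.0308).

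**Figure D3:**
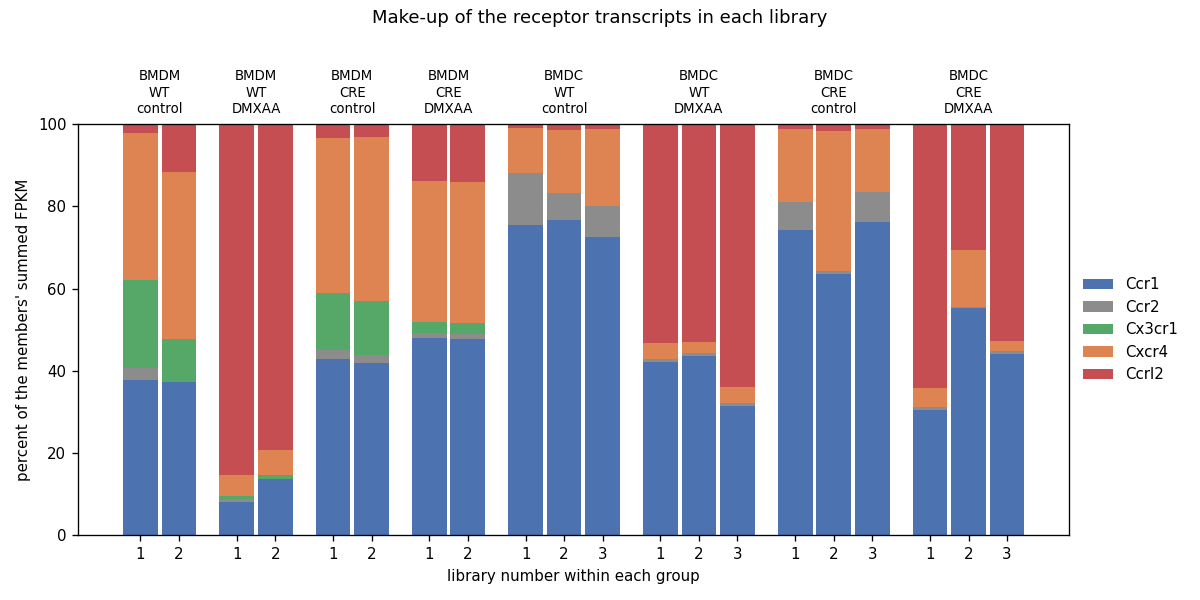
Share of each receptor in the summed FPKM of all 5, per library (bars stacked to 100 percent), by group and number. Ccrl2 made up 85.2% and 79.3% in WT-labelled DMXAA BMDMs, 13.9% and 14.1% in CRE-labelled DMXAA BMDMs and 30.7% to 64.2% in DMXAA BMDCs.

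As shares of the summed FPKM of the 5, control BMDMs held Ccr1 and Cxcr4 in near equal parts: Ccr1 made up 37.9% and 37.2% in the WT label and 43.0% and 42.0% in the CRE label, and Cxcr4 35.6%, 40.6%, 37.6% and 39.8%. In control BMDCs Ccr1 alone made up 63.6% to 76.6%. Under DMXAA Ccrl2 became the leading transcript in WT-labelled BMDMs and in 5 of 6 BMDC libraries. The exception was CRE number 2, where Ccr1 made up 55.4% and Ccrl2 30.7%. In CRE-labelled DMXAA BMDMs Ccr1 remained first at 47.9% and 47.7%. Shares depend on one another, so the fall of the others in WT-labelled BMDMs is in part the rise of Ccrl2.

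Ordered by mean FPKM, Ccrl2 was highest in WT-labelled DMXAA BMDMs (397 ± 1.97, SD, n = 2), apart from the next group, WT-labelled DMXAA BMDCs (147 ± 14.2, SD, n = 3), which overlapped CRE-labelled DMXAA BMDCs (128 ± 48.6, SD, n = 3). CRE-labelled DMXAA BMDMs followed at 25.0 ± 0.185 (SD, n = 2), apart from both neighbours. For Ccr1 the 4 BMDC groups led (103 to 122 FPKM) and no neighbours among them differed beyond their spread. For Cx3cr1 the 2 control BMDM groups (25.0 ± 7.61 and 20.5 ± 0.837, SD, n = 2) overlapped, and the 2 DMXAA BMDM groups (4.67 ± 0.402 and 3.94 ± 0.576) lay apart from each other by a margin smaller than their SDs. For Cxcr4 the first 3 places were WT-labelled control, CRE-labelled DMXAA and CRE-labelled control BMDMs, at 63.9 ± 19.0, 61.3 ± 0.510 and 59.0 ± 2.30 FPKM, of which the first overlapped both others. For Ccr2 WT-labelled control BMDCs led at 15.0 ± 7.90 FPKM (SD, n = 3) and overlapped CRE-labelled control BMDCs at 7.62 ± 5.52.

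Ligands of the 5 receptors were listed by what is known of the family, and 12 of the 13 were in the table. Binding was not tested, and that of mouse CCL8 to a receptor among the 5 is uncertain. DMXAA raised 7 of the 11 tested in WT-labelled BMDMs and lowered 1, with a median of 2.71 on the log2 scale against -0.079 over all genes tested, of which 18.4% rose and 20.8% fell. In CRE-labelled BMDMs 6 rose and 1 fell (median 1.62), in WT-labelled BMDCs 8 of 10 rose (median 2.27) and in CRE-labelled BMDCs 7 of 10 (median 1.73), against medians of -0.01, 0.007 and -0.008 and shares of all genes that rose of 7.19%, 16.9% and 14%. Ccl5, a ligand of CCR1, rose by 11.39 ± 0.87 in WT-labelled BMDMs, from 1.01 ± 1.22 to 2992 ± 185 FPKM (SD, n = 2), and by 6.49 ± 0.83 in CRE-labelled BMDMs, where it reached 36.2 ± 0.968 FPKM. It was lower in the CRE label under DMXAA by -6.32 ± 0.69 (adjusted p 0.00259). In BMDCs Ccl5 rose by 5.20 ± 0.69 and 3.42 ± 0.64, to 6117 ± 2859 FPKM and 4184 ± 52.2 FPKM (SD, n = 3). Ccl12, a ligand of CCR2, rose by 6.16 ± 0.32 and 5.71 ± 0.36 in BMDMs and by 5.70 ± 0.32 and 4.39 ± 0.30 in BMDCs, WT label first. Ccl8, also on the list, went from 0.139 ± 0.197 to 14.9 ± 2.89 FPKM in WT-labelled BMDMs. In CRE-labelled BMDMs it was listed at 0 in control and at 1.67 ± 0.135 FPKM under DMXAA. Every BMDM control library of the fit held less than 1 FPKM of Ccl8, so it passed the low-value limit there through DMXAA libraries alone. Ccl5 did not reach that limit in BMDMs on the controls alone. In BMDCs Ccl8 rose by 4.12 ± 0.87 and 2.37 ± 0.79. Ccl4, an inflammatory CC chemokine, rose by 4.53 ± 0.13 in WT-labelled BMDMs and by 3.23 ± 0.25 and 2.84 ± 0.24 in BMDCs. Ccl7 rose by 1.97 ± 0.28 in CRE-labelled BMDMs.

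Between labels under DMXAA, 7 of the 11 ligands tested were lower and 1 higher in CRE-labelled BMDMs (median -3.10), against 9.96% and 9.26% of all genes. The interaction called 2, Ccl4 (-2.64 ± 0.17, adjusted p 0.00409) and Ccl3 (-2.62 ± 0.40, adjusted p 0.0267), against 3.65% of all genes. Ccl4 was lower by -3.79 ± 0.13, Ccl7 by -3.72 ± 0.29 and Ccl3 by -3.67 ± 0.31. In control 0 of 11 were called, and in BMDCs 0 of 10 were called in control, under DMXAA and as an interaction, where edgeR called 0 genes in all. The cell type by DMXAA interaction called 3 of 11 ligands, against 2.62% of all genes. They were Ccl5 (-6.17 ± 1.10), Ccl7 (-1.81 ± 0.34) and Ccl4 (-1.28 ± 0.31), each with the smaller log2 response in BMDCs, whose control levels were higher (Ccl5 163 ± 43.6 FPKM against 1.01 ± 1.22). Ccl6 was higher in BMDCs in both treatments, at 4404 ± 730 FPKM in control and 4873 ± 1145 under DMXAA in WT-labelled BMDCs against 103 ± 20.3 and 59.5 ± 3.61 in WT-labelled BMDMs (log2 differences 5.36 ± 0.36 and 6.41 ± 0.38). Cxcl12, the ligand of CXCR4, stayed at or below a mean of 1.13 FPKM in all groups, and Rarres2, which encodes the CCRL2 ligand chemerin, at or below 0.0824 FPKM. Cx3cl1, which encodes fractalkine, had group means of 0.215 to 8.45 FPKM.

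**Figure D4:**
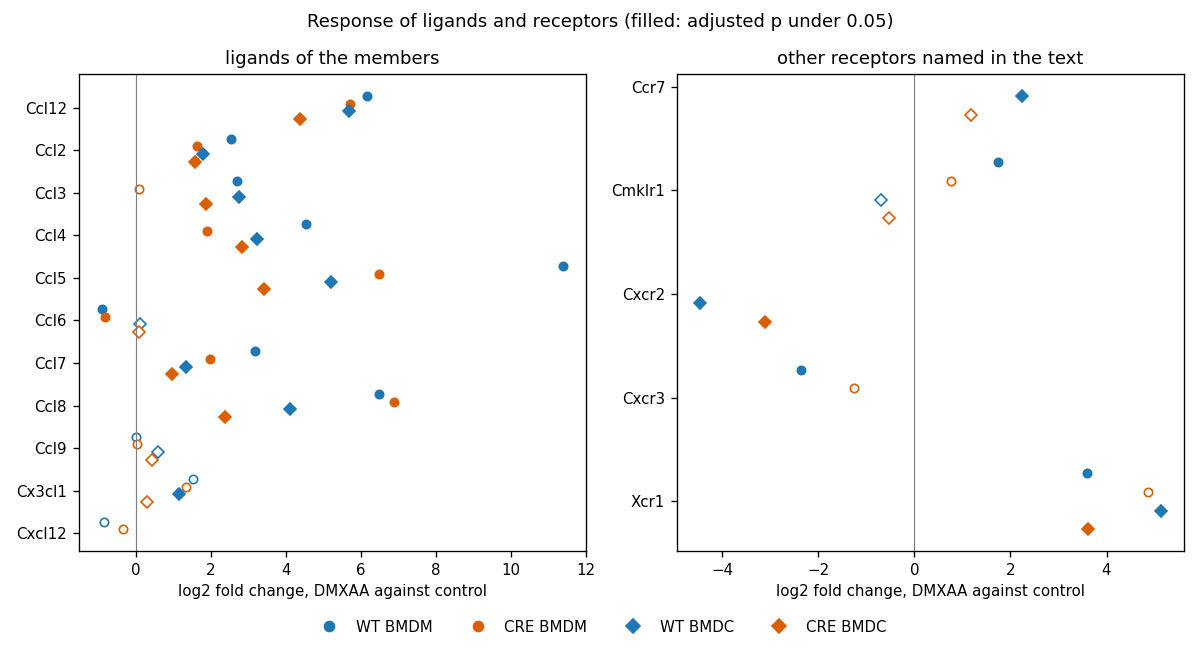
Log2 fold change under DMXAA of the ligands that passed the low-value limit (left) and of the 5 other receptors named in the text (right), in WT-labelled and CRE-labelled BMDMs (circles) and BMDCs (diamonds). Filled symbols passed an adjusted p of 0.05 in edgeR. Ccl12, Ccl5 and Ccl8 are filled and to the right of 0 in all 4 responses, and values for genes near 0 in control, such as Ccl8, depend on the fit.

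Of 20 other chemoattractant receptors, 5 were tested in BMDMs and 6 in BMDCs. Xcr1 was below 1 FPKM in every control library of the fits. It passed the low-value limit through DMXAA libraries alone, so only a rise could be found for it. In WT-labelled BMDMs 3 rose and 1 fell, where 18.4% of all genes tested rose and 20.8% fell. Among them Xcr1, known from cross-presenting dendritic cells, rose by 3.59 ± 0.93 to 7.10 ± 0.860 FPKM and Cmklr1, the signalling receptor of chemerin, by 1.75 ± 0.30, while Cxcr3 fell by 2.37 ± 0.41. In CRE-labelled BMDMs 0 of 5 were called, where 7.19% of all genes rose and 2.69% fell. Mean FPKM there moved in the WT-labelled directions, from 0.0402 to 1.27 for Xcr1, 1.45 to 2.51 for Cmklr1 and 2.67 to 1.13 for Cxcr3. In WT-labelled BMDCs Xcr1 and Ccr7, which leads dendritic cells to lymph nodes, were the 2 that rose, and Cxcr2 was among 2 that fell. Of all genes 16.9% rose and 15.2% fell there. Ccr7 went from 113 ± 39.6 to 542 ± 186 FPKM (SD, n = 3; 2.23 ± 0.52 on the log2 scale) and Cxcr2 from 10.8 ± 2.02 to 0.490 ± 0.217 FPKM (-4.47 ± 0.44). CRE-labelled BMDCs called Xcr1 (3.61 ± 0.40) and Cxcr2 (-3.11 ± 0.40), where 14% of all genes rose and 11.4% fell. Between the cell types in control, 4 of 8 were higher and 2 lower in WT-labelled BMDCs, against 13.1% and 15.4% of all genes. Ccr7 and Cxcr2 (0.112 ± 0.092 FPKM in BMDMs) were among the higher, with Cmklr1 (3.0 ± 0.72), and Cxcr3 (2.64 ± 0.136 against 0.0294 ± 0.0509 FPKM) among the lower. Under DMXAA 2 were higher and 1, Xcr1 (-1.67 ± 0.58), lower in BMDCs, with Ccr7 at a mean of 0.142 ± 0.0522 FPKM in BMDMs. Of all genes 15.3% were higher and 15.3% lower. Between the cell types Ccr7 and Cxcr2 passed the low-value limit through BMDCs alone and Cxcr3 through BMDMs alone.

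Of the 16 genes of G protein coupling and desensitisation, all were tested. DMXAA lowered 5 and raised 1 in WT-labelled BMDMs (median -0.32), lowered 2 in CRE-labelled BMDMs (median -0.10), lowered 7 and raised 1 in WT-labelled BMDCs (-0.37) and lowered 7 in CRE-labelled BMDCs (-0.31). Over all genes 20.8%, 2.69%, 15.2% and 11.4% fell and 18.4%, 7.19%, 16.9% and 14% rose in these 4 responses. Arrb1, which encodes the receptor-silencing beta-arrestin 1, fell in all 4 responses, by 3.01 ± 0.21 and 1.08 ± 0.19 in BMDMs and by 1.8 ± 0.25 and 1.39 ± 0.24 in BMDCs, WT label first. Its BMDM FPKM went from 12 ± 2.69 to 1.60 ± 0.280 in the WT label and from 13.1 ± 0.0986 to 6.28 ± 0.578 in the CRE label (SD, n = 2), and the interaction passed at 1.93 ± 0.28 (adjusted p 0.0222). Grk3, a receptor kinase, rose in WT-labelled BMDMs (2.13 ± 0.27) and its interaction also passed (-1.92 ± 0.38, adjusted p 0.0461). The interaction called 3.65% of all genes. In BMDMs Grk3 reached 1 FPKM in the WT-labelled DMXAA libraries only, so it passed the low-value limit through them alone. Grk6 fell by 0.81 ± 0.11 in WT-labelled BMDMs, by 1.45 ± 0.26 in WT-labelled BMDCs and by 1.19 ± 0.25 in CRE-labelled BMDCs, and Grk5 by 1.51 ± 0.18 and 1.26 ± 0.18 in BMDCs. Arrb2 fell by 1.21 ± 0.25 in WT-labelled BMDMs, Rgs10 by 1.07 ± 0.13 in CRE-labelled BMDMs and Rgs18 by 1.02 ± 0.28 in CRE-labelled BMDCs, while Rgs1, which limits G protein signalling, rose by 2.81 ± 0.75 in WT-labelled BMDCs. Under DMXAA Arrb1 (2.02 ± 0.20) and Grk2 (0.85 ± 0.20) were higher and Grk3 (-2.45 ± 0.27) lower in CRE-labelled than in WT-labelled BMDMs. Of all genes 9.26% were higher and 9.96% lower in that comparison. WT-labelled BMDCs had less Rgs16 (-3.30 ± 0.85), Rgs1 (-3.0 ± 0.71) and Rgs2 (-2.47 ± 0.52) and more Grk5 (2.32 ± 0.22) than WT-labelled BMDMs in control, and less Rgs16 (-4.31 ± 0.86), Rgs2 (-3.08 ± 0.53) and Gng2 (-1.44 ± 0.26) and more Arrb1 (1.60 ± 0.27) under DMXAA.

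The genes whose pattern was most like a receptor's were found by Pearson's r of log2(FPKM + 1) over the 20 libraries without BMDM number 3, among 6761 genes with a mean of at least 5 FPKM. The libraries fall into 2 cell types and 2 treatments, so r is a description. Gm43814, Bcl10 and Cxcl10 were most like Ccrl2, each at r of 0.98. Gm43814 lies on the same chromosome and strand as Ccrl2, from 111052781 to 111053193, with 1292 bases between the genes, and the annotation marks it as a sequence to be experimentally verified. Its mean FPKM was 1.73 and 73.3 in WT-labelled BMDMs, control and DMXAA, 1.29 and 4.45 in CRE-labelled BMDMs, and 0.336 and 27.1 in WT-labelled BMDCs. Cxcl10, an interferon-responsive chemokine gene, went from 1.43 to 3665 FPKM in WT-labelled and from 0.308 to 71.0 FPKM in CRE-labelled BMDMs. Sh3bp5 (0.97), Ero1lb (0.96) and Abcc3 (0.96) were most like Cx3cr1, but within BMDCs, where Cx3cr1 is near 0, their r was 0.46, -0.58 and -0.39. Sh3bgrl3 (0.92), Cryzl1 (0.90) and Dcstamp (0.89) were most like Ccr1. Afg3l2 (0.95), Eci1 (0.94) and Angptl2 (0.94) were most like Cxcr4. Ccr2 did not reach the mean of 5 FPKM.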

How the data were processed

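RNA of 24 mouse libraries was analysed from 1 gene table, in which the authors deposited raw counts and FPKM values per gene and library. The FPKM rest on a library size that was 0.687 to 1.33 times the total count. In BMDCs that factor was 1.03 to 1.16 in control and 0.797 to 0.893 under DMXAA. In WT-labelled BMDMs of numbers 1 and 2 it was 1.12 in control and 0.687 and 0.771 under DMXAA. In CRE-labelled BMDMs of these numbers it was 1.06 and 1.05 in control and 0.891 and 0.884 under DMXAA. The submitters' processing notes name CASAVA 1.8, fastp, HISAT2 2.0.5, featureCounts 1.5.0-p3, DESeq2 1.20.0, GRCm38 and mm10, and strandedness is not given in the sources used here. The group means, fold changes and p-values of the authors' own comparisons were not used. Total counts were 15657347 to 18912887 per library.

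Counts were fitted in R 4.3.3 by edgeR 4.0.16 (quasi-likelihood, robust, TMM scaling, two-sided), with Benjamini-Hochberg adjustment over all genes tested and calls at an adjusted p under 0.05. Every adjusted p is from edgeR unless another tool is named. Fits used 8 BMDM libraries (numbers 1 and 2), 12 BMDC libraries or these 20 together, with genes at an FPKM of 1 or more in 2 libraries (3 for BMDCs alone). A gene could pass this limit only through the groups where it was high, and the direction of such a call was set by the limit. Each SE is the log2 change over the root of its F value. Alternatives were DESeq2 1.42.0, limma 3.58.1 on log2(FPKM + 1) and log2(FPKM + 0.1), median of ratios scaling, other filters, an adjusted p under 0.01, replicate blocks, the compared groups alone, all BMDM libraries and each library left out. Leaving out both WT BMDM or both CRE BMDC libraries numbered 2, and DESeq2 on all BMDM libraries, were added after the data were seen. A limit from 0 counts is 3 counts per library and covers counting error only.

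The members and gene lists were chosen with earlier results of these data known. Named genes are the members, up to 4 of each list per comparison with the largest log2 change in size among those called with a mean of at least 1 FPKM in the higher group, and the 3 genes most like each member. Ligands named for their level alone were chosen after their values were seen. In BMDCs the deviations of same-numbered control and DMXAA libraries from their group means correlated at 0.41 to 0.67 in the WT label and 0.55 to 0.69 in the CRE label, and at most 0.01 between labels. Within a label the numbers were taken to pair the treatments, on the data alone, since no label says so. A gene of the receptor list is not reported here by name. Promoter windows are from RefSeq (GRCm38.p6).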

Additional observations from a re-analysis of the deposited data

How the results depend on the processing

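Counts below are of receptors called, of 5, or of 4 in BMDCs. Of 210 counts under the alternatives, 167 were within 1.5 times of the reported one and 43 were not. With all 12 BMDM libraries edgeR called 0 in the WT-labelled and 0 in the CRE-labelled DMXAA response and 0 between labels under DMXAA, 1 between cell types in control and 0 under DMXAA. DESeq2 on the same libraries gave 0, 0, 0, 1 and 1, with no adjusted p for Ccrl2. Over all genes the WT-labelled BMDM count was 4533 with numbers 1 and 2, 0 by edgeR with all libraries and 508 by DESeq2, where the genes called in the CRE label were 1143, 0 and 116. With the WT-labelled BMDM libraries numbered 2 left out, 5 were called in the WT-labelled response, 4 between labels in control, 4 under DMXAA, 4 as an interaction and 2 between cell types in control. There the control difference between labels turned to -0.38 for Ccr2 and 0.63 for Ccrl2. Each remaining WT-labelled library is then assumed to vary like the CRE-labelled pairs, and all-gene calls were 7324, 2601, 6186 and 5382 against 4533, 5, 2223 and 422. Fits of only the groups compared gave 1 in WT-labelled BMDMs (1819 genes in all), 4 in CRE-labelled BMDMs (6438 genes) and 1 in CRE-labelled BMDCs (1834 genes). An adjusted p under 0.01 left 0 between labels under DMXAA in BMDMs, 1 in CRE-labelled BMDCs, 2 between cell types in control and 1 under DMXAA. Over all genes it left 781, 1750, 2376 and 2445. Without a low-value filter the counts were 1 for the BMDM interaction, 1 for CRE-labelled BMDCs and 3 for the cell type interaction (1010, 2832 and 836 genes). DESeq2 gave 1 for the BMDM interaction (1195 genes) and 1 for the cell type interaction (738 genes). With either pseudocount limma gave 1 for CRE-labelled BMDCs (3018 and 3022 genes) and 1 for the cell type interaction (527 and 435 genes). The cause was not tested.

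A replicate block across labels gave 1 for the BMDM interaction (Cxcr4, 1.36, adjusted p 0.0438) and 2 between cell types under DMXAA. Over all genes it called 462 and 2953 there. A block within a label gave 4 in WT-labelled BMDMs, where Ccr1 passed (-0.38, adjusted p 0.0388, and 0.75, adjusted p 0.0355, as an interaction), 2 in CRE-labelled BMDMs, 2 for the BMDM interaction and 2 for the cell type interaction, and raised the all-gene count from 3891 to 5902 in WT-labelled BMDCs and from 3079 to 5175 in CRE-labelled BMDCs. In BMDMs 1 and 2 the correlation of same-numbered libraries was 0.63 in the WT label, within the range of the BMDC values, and 0.03 in the CRE label. Numbers were not read as pairing in BMDMs. The block within a label called 6123 genes in WT-labelled and 2980 in CRE-labelled BMDMs. It called 1766 genes for the BMDM interaction and 1438 for the cell type interaction. Leaving out 1 library at a time gave 3 to 4 in WT-labelled BMDMs, 1 to 1 in CRE-labelled BMDMs, 0 to 1 between labels in control, 0 to 3 under DMXAA, 0 to 2 for the interaction, 2 to 2 in WT-labelled and 1 to 2 in CRE-labelled BMDCs, 2 to 3 between cell types in control, 1 to 3 under DMXAA and 0 to 1 for their interaction, and 0 throughout for the 3 label comparisons of BMDCs. Without WT-labelled control number 1, Ccrl2 was called between labels in control (-2.17, adjusted p 0.00254). With 2 libraries per BMDM group, differences of the size of Ccr1 lay within the intervals given.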
